A study of Mus musculus with 16 samples.

Results

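Hpdl, Asb11, Kcnc4, Mpp2 and Syt12 are 5 mouse genes whose signal in the caput epididymis of castrated mice was far higher 12 h after an injection of testosterone propionate than after vehicle. They were taken by symbol from the 18194 genes that had at least 1 probe set with exactly 1 gene symbol, and they were picked for the size of that rise, so the rise itself is given below as a description without a test. The 5 genes have 6 probe sets, 2 of them for Kcnc4.

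Expression was measured on 16 one-colour Affymetrix arrays, 8 for the caput epididymis and 8 for the efferent ducts, the short tubules that carry fluid and sperm between testis and epididymis. The mice were adult males of the strain 129BL/6, without any transgene or mutation named in the labels. In the TP group, mice were castrated, left for 14 days and then given 0.015 mg of testosterone propionate. In the E2 group, castrated mice were given 0.015 mg of estradiol on the same schedule. The castrated group was castrated and given vehicle alone, which was 100 µL of 10% ethanol in sesame oil, and the hormones were given in that vehicle. The sham group had a sham operation and the same vehicle and kept its testes. Tissue was taken 12 h after the injection in every group, and each group had 2 arrays per tissue. Nothing in the labels says that the 2 arrays came from separate mice, so error terms and p-values measure the spread between these arrays, which may be technical.

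Testosterone propionate is an ester that releases testosterone in the body, and testosterone acts through the androgen receptor, a transcription factor that binds DNA as a dimer. The caput is the first main region of the epididymis, a long tubule in which sperm mature, and its principal cells depend on androgen from blood and on factors in testicular fluid. Castration removes both, and an injection of testosterone propionate returns the circulating androgen but not the fluid. The 5 genes have no single known function in common. Hpdl encodes a mitochondrial enzyme related to the tyrosine-degrading dioxygenase Hpd, and in human cells it takes part in making the head group of coenzyme Q. Asb11 encodes an ankyrin-repeat and SOCS-box protein, a substrate receptor of a CUL5 ubiquitin ligase, and in human cells it is induced by stress of the endoplasmic reticulum and targets the protein BIK. Kcnc4 encodes Kv3.4, a pore-forming subunit of a fast voltage-gated potassium channel. Mpp2 encodes a membrane-associated guanylate kinase, a scaffold known from synapses. Syt12 encodes a synaptotagmin of secretory vesicles, known from the rodent brain, whose C2 domains lack calcium-binding residues.

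The genes lie on different chromosomes. In the RefSeq annotation of build GRCm38.p6, Hpdl spans chr4:116819907-116821508, Asb11 chrX:164436953-164459170, Kcnc4 chr3:107438298-107460287, Mpp2 chr11:102057015-102088638 and Syt12 chr19:4445908-4477143. All are protein-coding. The promoter sequences below, of 300 bases from 250 before to 50 after a RefSeq transcription start, are shown because the genes were chosen for a common response to a ligand of a DNA-binding receptor. Of the 5 genes, 4 matched the RefSeq promoter table (Hpdl, Asb11, Kcnc4 and Mpp2, the last with 2 starts). Capitals mark every match, on either strand, to the CCAAT box, to the GC box, whose letters are GGGCGG, or to the core of an unfolded protein response element, whose letters are TGACGTGG.
Hpdl, chr4:116821459-116821758, minus strand: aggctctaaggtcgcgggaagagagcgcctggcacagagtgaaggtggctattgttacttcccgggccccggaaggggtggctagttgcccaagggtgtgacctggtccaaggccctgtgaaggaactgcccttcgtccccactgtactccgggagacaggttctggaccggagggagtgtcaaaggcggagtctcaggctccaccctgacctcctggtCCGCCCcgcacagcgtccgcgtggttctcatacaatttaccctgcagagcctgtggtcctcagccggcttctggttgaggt
Asb11, chrX:164436744-164437043, plus strand: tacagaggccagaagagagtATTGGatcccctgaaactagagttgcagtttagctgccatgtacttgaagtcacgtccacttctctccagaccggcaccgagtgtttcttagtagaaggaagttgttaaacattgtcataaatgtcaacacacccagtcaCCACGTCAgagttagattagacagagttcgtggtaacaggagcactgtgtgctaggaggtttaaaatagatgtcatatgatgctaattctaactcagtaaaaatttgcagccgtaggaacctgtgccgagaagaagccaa
Kcnc4, chr3:107458849-107459148, minus strand: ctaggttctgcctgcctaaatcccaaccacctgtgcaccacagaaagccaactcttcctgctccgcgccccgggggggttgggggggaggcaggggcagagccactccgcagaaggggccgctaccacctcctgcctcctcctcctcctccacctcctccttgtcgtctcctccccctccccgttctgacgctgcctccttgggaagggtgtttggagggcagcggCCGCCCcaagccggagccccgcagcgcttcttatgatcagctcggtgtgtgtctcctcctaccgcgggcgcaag
Mpp2, chr11:102088466-102088765, minus strand: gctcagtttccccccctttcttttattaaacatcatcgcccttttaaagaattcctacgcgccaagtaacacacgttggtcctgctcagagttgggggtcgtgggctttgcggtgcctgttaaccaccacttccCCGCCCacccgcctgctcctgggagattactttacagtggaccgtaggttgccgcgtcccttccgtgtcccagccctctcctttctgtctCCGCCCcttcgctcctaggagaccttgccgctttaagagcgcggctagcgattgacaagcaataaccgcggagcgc
Mpp2, chr11:102082435-102082734, minus strand: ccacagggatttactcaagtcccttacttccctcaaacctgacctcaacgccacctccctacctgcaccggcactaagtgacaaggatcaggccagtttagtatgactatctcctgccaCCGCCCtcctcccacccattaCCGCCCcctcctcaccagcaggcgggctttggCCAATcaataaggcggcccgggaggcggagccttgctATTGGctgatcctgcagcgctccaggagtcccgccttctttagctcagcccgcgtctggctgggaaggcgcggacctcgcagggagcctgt
The Asb11 window holds TGACGTGG, read on the opposite strand as CCACGTCA and starting 90 bases before the start, a motif found in 0.676% of the 32851 RefSeq promoter windows searched. It also holds a CCAAT box on the opposite strand, 230 bases before the start. CCAAT was found in 37.4% of all windows. GC boxes, present in 35.7% of all windows, stand 31 bases before the start of Hpdl, 24 before that of Kcnc4, 116 and 26 before the first Mpp2 start and 131 and 110 before the second. The second Mpp2 window also has CCAAT boxes 78 and 41 bases before the start. The letters TGTTCT, a single arm of the androgen receptor's binding element (19.0% of all windows), the TATA box TATAAA (13.6%) and the cyclic AMP element TGACGTCA (1.79%) were searched on both strands and matched in none of the 5 windows. The same held for the full element, an inverted repeat of that arm with a spacer of 3 bases (0.00913% of all windows). It also held for a relaxed form in which each arm lacks its outermost base and has a free base (0.475%). The single arm lies within the full element, so those searches overlap. Asb11 has the lowest GC content of the 5 windows, 44%, and 7 CpG dinucleotides, against 62% and 15 for Hpdl, 66.7% and 17 for Kcnc4, 57% and 21 for the first Mpp2 start, and 61.3% and 15 for the second. The median over all windows was 52.7% GC and 7 CpG. The Kcnc4 window and the second Mpp2 window lie wholly inside the spans given for their genes, so their starts are not the outermost ones. Sequence before an outer start of Kcnc4 was not searched. A match or its absence describes these letters in these windows only.

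The values are the intensities deposited for each array on a linear scale, and differences are on the log2 scale. A probe set was taken as above background on an array when it was brighter than every one of 27 probe sets for Bacillus genes that were not in the samples. That background lay between 7.82 and 12.3 on the caput arrays, where 69.1% to 76.2% of probe sets exceeded it. The duct arrays fell into sets of unlike signal quality: the 4 hormone arrays had a background of 2.33 to 3.97, a log2 ratio of 3' to 5' actin signal of 0.913 to 1.93 and a highest intensity of 3218 to 4517, against 8.09 to 14.3, 3.11 to 3.87 and 14456 to 19967 on the 4 vehicle arrays. All 11 measured markers of caput principal cells were above background in sham caput. They summed to 73574 to 74320 in sham caput and to 5911 to 10277 in sham duct. In sham duct, 9 of the 11 were above background on replicate 1 and all 11 on replicate 2. In tissue RNA, fewer cells of a type and less RNA per cell cannot be told apart.

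Hpdl had an intensity of 441 and 412 on the TP caput arrays, 12.6 and 9.75 on the E2 arrays, 3.93 and 3.41 on the castrated arrays and 369 and 327 on the sham arrays. Both castrated values lay below background and both E2 values just above it, and the TP values were above both sham values. No groups overlapped, and as read the order was TP, sham, E2, castrated. E2 replicate 2 lay under the background of 11.4 on castrated replicate 2, so the place of E2 above castrated is not established. Against castrated caput, Hpdl was at least 45.1-fold higher after TP, and it was the gene with the largest log2 difference of all, 6.86.

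Asb11, the ubiquitin ligase receptor, had an intensity of 989 and 826 with TP, 131 and 145 with E2, 50.7 and 28.0 in castrated and 644 and 778 in sham caput. It was above background on all 8 caput arrays, and its groups stood in the same order as for Hpdl without overlap. TP values were 24.0-fold higher than castrated values.

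Kcnc4, the Kv3.4 channel subunit, had an intensity of 95.3 and 100.3 with TP, 4.51 and 3.89 with E2, 5.57 and 3.45 in castrated and 125 and 185 in sham caput on its brighter probe set. All 4 E2 and castrated arrays were below background, so nothing separates those groups, while every TP value was under every sham value. TP values were at least 10.3-fold higher than castrated values. The dimmer Kcnc4 probe set read 30.9 and 16.3 with TP, 14.6 and 3.58 with E2, 9.84 and 6.17 in castrated and 45.3 and 61.7 in sham caput. It put the groups in the same order with smaller gaps, a TP minus castrated difference of 1.52 against 4.48 for the brighter probe set.

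Mpp2, the scaffold protein, had an intensity of 188 and 213 with TP, 86.5 and 36.5 with E2, 15.6 and 6.95 in castrated and 97.2 and 108 in sham caput. Its TP level was the highest of the 4 groups, and its E2 level was close below sham, though no groups overlapped. TP values were 19.2-fold higher than castrated values, of which 1 of 2 exceeded background.

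Syt12, the synaptotagmin, had an intensity of 106 and 65.7 with TP, 33.7 and 26.5 with E2, 8.46 and 2.58 in castrated and 348 and 323 in sham caput. Sham was highest here and TP lay well below it, with no overlap between any groups. TP values were 17.9-fold higher than castrated values, of which 1 of 2 exceeded background, and the log2 difference was 5.02 without castrated replicate 1 and 3.30 without castrated replicate 2. By log2 difference between TP and castrated caput, the 5 genes ranked 1 (Hpdl), 4 (Asb11), 6 (Kcnc4), 8 (Mpp2) and 10 (Syt12) of 18194, so the smallest was 4.16. These ranks take signals below background as they stand, so they depend on the dim castrated arrays of all but Asb11. Over the alternative settings the smallest differences were 4.74 for Hpdl, 4.155 for Asb11, 2.61 for Kcnc4, 3.64 for Mpp2 and 2.38 for Syt12. For all 5 genes the TP and castrated arrays did not overlap, as chosen. Of all genes 23.2% were higher in that way, and 1.67% were called changed in either direction at an adjusted p under 0.05 (limma with Benjamini-Hochberg adjustment).

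**Figure D1:**
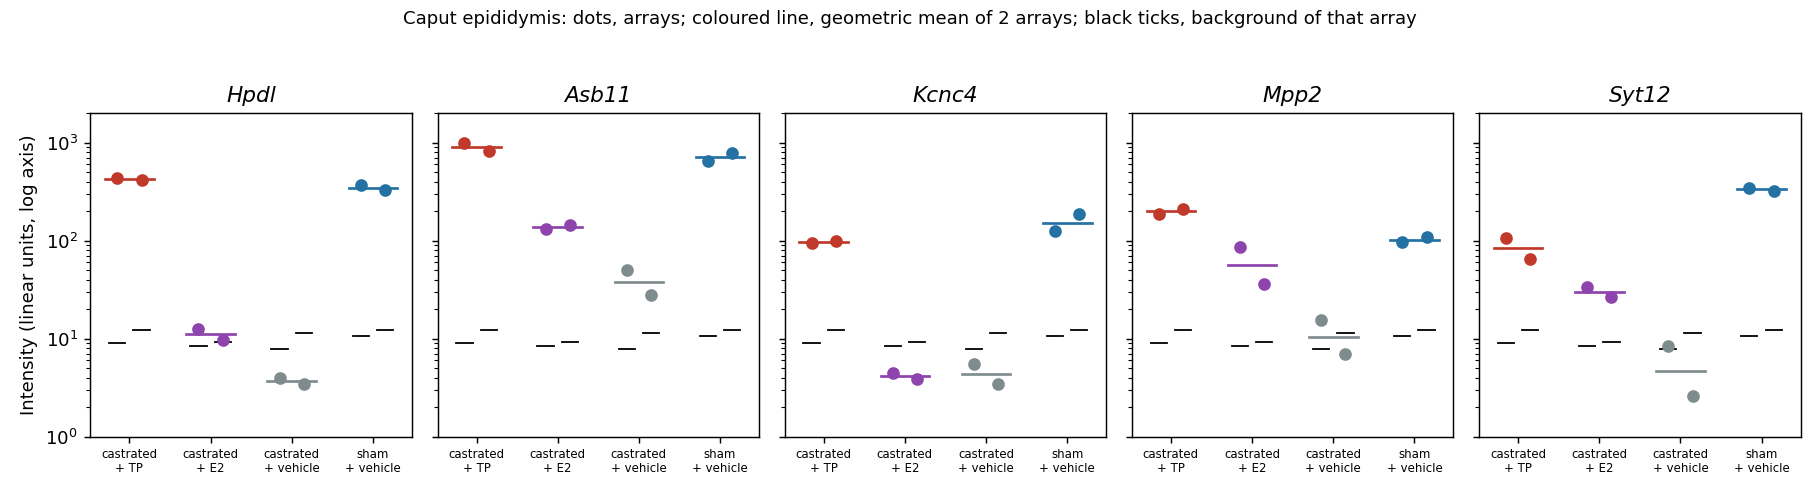
Intensity of each gene on a log axis in the 8 caput arrays, 2 points a group with a line at their geometric mean, with TP, E2, castrated and sham from left to right and each array's background as a black tick. The TP points of Hpdl (441 and 412), Asb11 and Mpp2 stand above the sham points, those of Kcnc4 and Syt12 stand below them, and the castrated points are lowest or share the lowest place.

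All 5 genes were lower in castrated than in sham caput. Castrated values were at least 36.7-fold lower than sham values for Hpdl, 18.8-fold for Asb11, at least 16.1-fold for Kcnc4, 9.84-fold for Mpp2 and 71.9-fold for Syt12. The size for Syt12 depends on the dim castrated arrays, with a log2 difference of -6.17 from both, -7.03 without castrated replicate 1 and -5.31 without castrated replicate 2. Over the alternative settings its smallest fall was -4.39. Mpp2 and Syt12 were below background on 1 of 2 castrated arrays and their folds hold no floor, so they do not compare with the bounds. By fitted log2 difference Hpdl fell most, by -6.57. The castrated and sham arrays did not overlap for any of the 5, and 27.6% of all genes were lower in that way, while 14% of all genes were called in either direction. These values share the castrated arrays with the choice of the genes and carry no test. Summed intensity of the 11 caput principal cell markers was 12065 to 12332 in castrated and 73574 to 74320 in sham caput, and that of 9 sperm and germ cell markers 107 to 145 in castrated and 1878 to 7476 in sham caput. Their part in the differences was not tested.

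Relative to sham, the TP levels of the 5 genes read from 1.95-fold higher to 4.02-fold lower. Of their 95% intervals only that of Syt12 leaves out 0, and differences between the genes were not tested. After TP, Hpdl stood 1.23-fold higher than sham (log2 difference 0.30, 95% interval -0.15 to 0.74), Asb11 1.28-fold higher (0.35, -0.43 to 1.13) and Mpp2 1.95-fold higher (0.96, -0.40 to 2.33). Kcnc4 stood 1.55-fold lower than sham (-0.64, -1.40 to 0.13) and Syt12 4.02-fold lower (-2.01, -3.50 to -0.52). The TP and sham arrays did not overlap for any of the 5, with 3 higher and 2 lower after TP, while 32.2% of all genes were higher and 29% lower in that way. Over all genes 9.16% were called different between TP and sham caput. The TP arrays were also used to choose the genes, so no test is given. The principal cell markers summed to 16810 to 22907 in TP caput, still below the 73574 to 74320 of sham caput, and sperm markers to 108 to 113, against 1878 to 7476.

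All 5 genes were lower after estradiol than after testosterone propionate. TP values were 38.5-fold higher than E2 values for Hpdl, 6.54-fold for Asb11, at least 11.1-fold for Kcnc4, 3.56-fold for Mpp2 and 2.79-fold for Syt12. All 5 genes were higher with TP without overlap, as were 20.6% of all genes, and 2.12% of all genes were called in either direction. Against castrated caput, E2 values were 3.67-fold higher for Asb11, 5.39-fold for Mpp2 and 6.40-fold for Syt12, and at least 1.17-fold for Hpdl. Those 4 genes did not overlap between E2 and castrated arrays, against 23.8% of all genes that were higher in that way. Kcnc4 was below background in both groups and gets no fold. At an adjusted p under 0.05, 0% of all genes were called between E2 and castrated caput. These comparisons too share TP or castrated arrays with the choice of the genes and have no test.

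The E2 and sham caput groups hold none of the arrays the genes were chosen on, so the log2 differences between them use none of those arrays. The error terms came from the fit of all caput arrays, with the TP and castrated arrays included. The intervals and p-values of this comparison thus share arrays with the choice of the genes. Hpdl, Asb11, Kcnc4 and Syt12 were lower in E2 caput than in sham caput past the threshold, and Mpp2 was not. By limma with Benjamini-Hochberg adjustment over all genes, Hpdl fell 31.3-fold (log2 difference -4.97, adjusted p = 0.00128), Kcnc4 at least 17.2-fold (-5.18, adjusted p = 0.00328), Syt12 11.2-fold (-3.49, adjusted p = 0.0203) and Asb11 5.13-fold (-2.36, adjusted p = 0.0120). Mpp2 differed by -0.87 (95% interval -2.23 to 0.50, adjusted p = 0.320). All 5 genes were lower in E2 than in sham caput without overlap, as were 27.5% of all genes. These 4 calls of 5 stand against 7.26% of all genes called lower and 17.2% called in either direction. The E2 mice were castrated, like the mice the genes were chosen on. Low values here are thus favoured by the choice, and the count is not independent of it. The dimmer Kcnc4 probe set differed by -2.87 (adjusted p = 0.0626 in the limma fit over all probe sets). Leaving out E2 replicate 1, sham replicate 1 or sham replicate 2 put Asb11 and Syt12 over the threshold, and leaving out E2 replicate 2 put Syt12 alone over it, at limma adjusted p-values of 0.0580 to 0.0927. In those fits the lone array of a group is assumed to vary like the other groups. With the 4 arrays of the comparison fitted alone, none of the 5 genes passed, and the adjusted p-values of the 4 lay between 0.0517 and 0.0573. Log2 ratios of 3' to 5' actin signal were 0.877 and 1.02 in E2 caput, against 0.636 and 0.751 in sham caput, and the part of RNA quality was not tested.

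**Figure D2:**
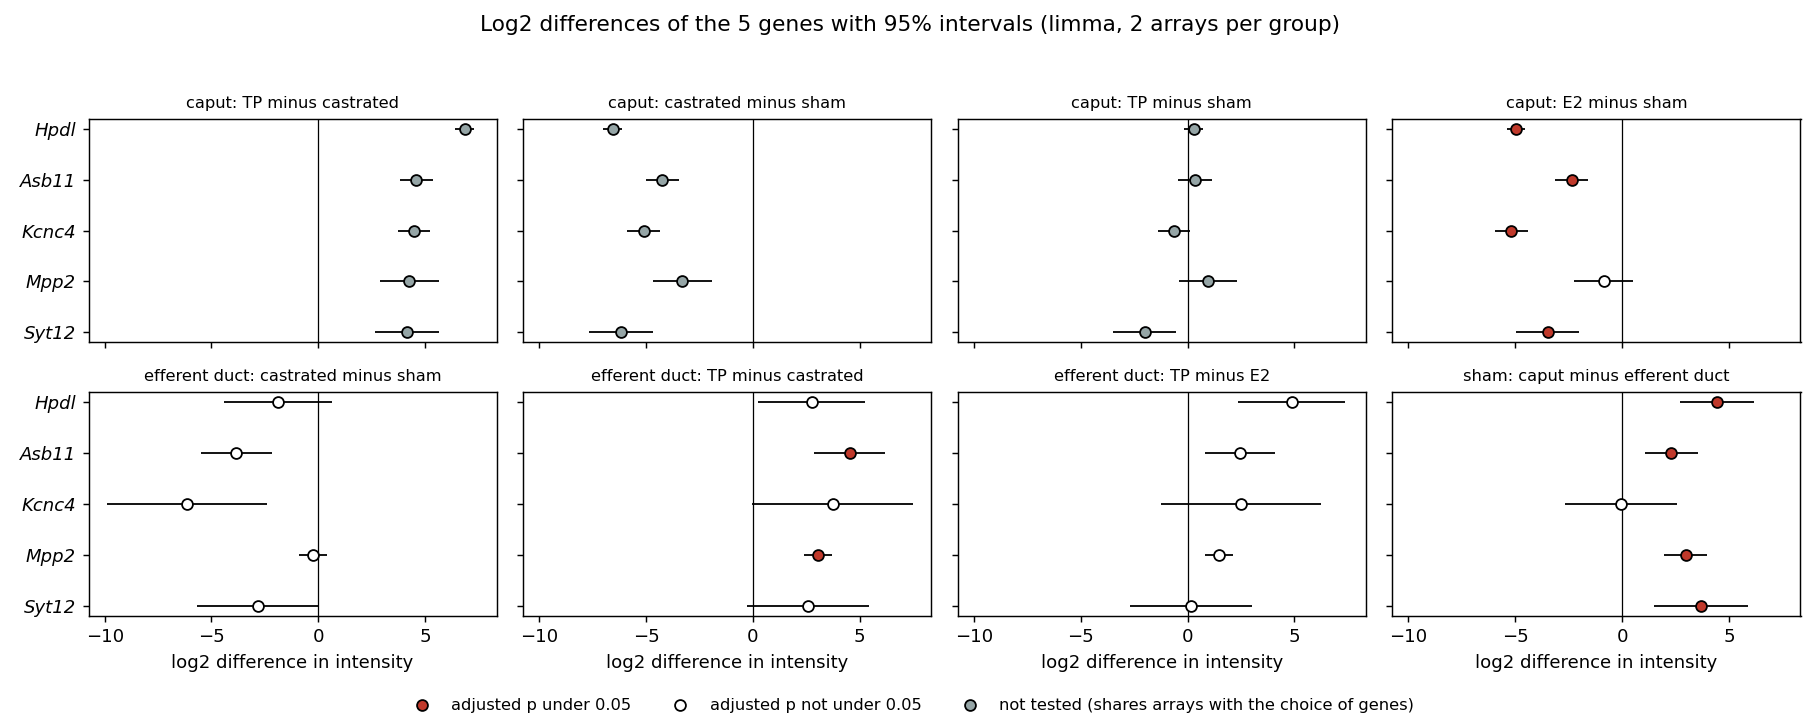
Log2 differences of the 5 genes in 8 comparisons, with 95% intervals from limma and red points where the adjusted p was under 0.05, open points where it was not and grey points where no test is given. In E2 minus sham caput, Hpdl (-4.97), Asb11 (-2.36), Kcnc4 (-5.18) and Syt12 (-3.49) have intervals below 0 and that of Mpp2 (-0.87) crosses it.

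The efferent duct arrays had no part in choosing the genes. Hormone and vehicle arrays of the ducts lie in the unlike sets of signal quality described above, so treatment and signal quality cannot be told apart wherever TP or E2 duct is set against castrated or sham duct. Asb11 kept the group order of the caput in the ducts. It had an intensity of 257 and 218 with TP, 31.6 and 58.8 with E2, 5.29 and 19.6 in castrated and 168 and 124 in sham duct. No groups overlapped. Asb11 rose in TP duct 23.3-fold over castrated duct (log2 difference 4.54, limma adjusted p = 0.00777). Of the castrated duct values 1 of 2 exceeded background, and the difference was 3.60 without castrated replicate 1 and 5.48 without castrated replicate 2. It was 5.49-fold higher in TP than in E2 duct (2.46, adjusted p = 0.434) and 14.2-fold lower in castrated than in sham duct (-3.83, 95% interval -5.49 to -2.17, adjusted p = 0.0985), and neither passed the limma threshold.

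Mpp2 had an intensity of 114 and 73.6 in TP, 30.0 and 37.1 in E2, 11.0 and 10.9 in castrated and 12.8 and 13.5 in sham duct. In the ducts both hormone groups stood above sham, and castrated and sham read alike near the limit of detection, with 1 of 2 arrays above background in each. In the caput Mpp2 was 9.84-fold lower in castrated than in sham, and the difference between the tissues was not tested. Mpp2 rose 8.36-fold in TP over castrated duct (3.06, limma adjusted p = 0.00523). Castrated minus sham duct differed by -0.26 (95% interval -0.91 to 0.39, limma adjusted p = 0.654), and TP minus E2 duct by 1.46 (adjusted p = 0.261).

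Hpdl had an intensity of 40.1 and 21.3 in TP, 2.88 and 0.346 in E2, 3.70 and 5.13 in castrated and 20.5 and 12.6 in sham duct. All E2 and castrated values were below background, and TP values were above both sham values. Hpdl was at least 2.53-fold higher in TP than in castrated duct (fitted log2 difference 2.75, limma adjusted p = 0.0845) and at least 8.29-fold higher in TP than in E2 duct (4.87, adjusted p = 0.312). Castrated duct was at least 1.39-fold lower than sham duct by the same kind of bound (-1.88, limma adjusted p = 0.421). Sham replicate 2 lay under the background of 13.2 on castrated replicate 1, so that order is not established.

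Kcnc4 had an intensity of 25.4 and 33.9 in TP, 1.90 and 13.9 in E2, 8.61 and 0.571 in castrated and 216 and 112 in sham duct. Sham was far above every other group, and E2 and castrated overlapped near background. Kcnc4 was at least 13.5-fold lower in castrated than in sham duct (-6.13, limma adjusted p = 0.159) and at least 2.54-fold higher in TP than in castrated duct (3.73, adjusted p = 0.107). It was 5.71-fold higher in TP than in E2 duct (2.51, limma adjusted p = 0.759). The dimmer Kcnc4 probe set read 15.4 and 13.6 in TP, 7.55 and 7.34 in E2, 18.5 and 6.72 in castrated and 15.1 and 20.4 in sham duct, so the 2 probe sets disagree in the ducts.

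Syt12 had an intensity of 40.5 and 11.5 in TP, 28.2 and 13.4 in E2, 10.6 and 1.24 in castrated and 28.9 and 23.3 in sham duct. The TP, E2 and sham groups overlapped, and castrated was below background. On castrated replicate 1 the background was 13.2, above TP replicate 2. Syt12 was at least 1.87-fold higher in TP than in castrated duct (2.57, limma adjusted p = 0.133), at least 2.25-fold lower in castrated than in sham duct (-2.84, adjusted p = 0.316), and 1.11-fold higher in TP than in E2 duct (0.15, adjusted p = 0.992).

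**Figure D3:**
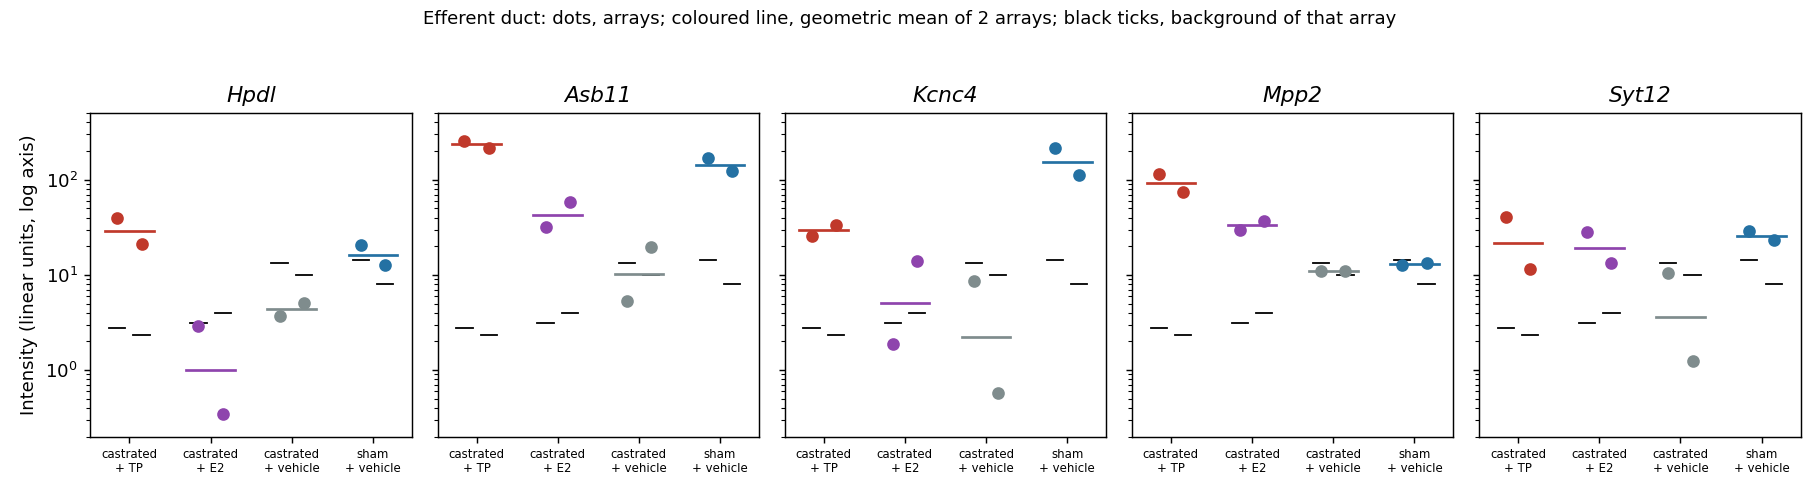
Intensity of each gene on a log axis in the 8 duct arrays, 2 points a group with a line at their geometric mean, with TP, E2, castrated and sham from left to right and each array's background as a black tick. Asb11 keeps 4 separate groups (257 and 218 with TP at the top), Kcnc4 is highest in sham (216 and 112), and the Syt12 groups other than castrated overlap.

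Over the 5 genes, 2 were called higher in TP than in castrated duct, against 23.2% of all genes called higher and 35.5% called in either direction. All 5 were higher without overlap, as were 42.3% of all genes, and the median log2 difference of all genes was 0.23. Syt12 read 11.5 on TP replicate 2, under the background of 13.2 on castrated replicate 1, so its order is not established. Without castrated duct replicate 1 the call count was 4, with Kcnc4 and Syt12 added. Castrated and sham duct arrays all belong to the vehicle set, in which castrated replicate 1 stood apart with a log2 ratio of 3' to 5' Gapdh signal of 2.90, against 1.88 on castrated replicate 2 and 1.94 and 1.99 on the sham arrays. In castrated against sham duct 0 of the 5 genes were called by limma and 2 had an unadjusted p under 0.05, beside 0.291% of all genes called. All 5 were lower in castrated than in sham duct without overlap, as were 23% of all genes. For Mpp2 1 of 2 arrays was above background in each group. For Hpdl, sham replicate 2 (12.6) lay under the background of 13.2 on castrated replicate 1. The orders of Mpp2 and Hpdl are thus not established. Between TP and E2 duct, both of the hormone set, 0 of the 5 were called by limma and 3 had an unadjusted p under 0.05, with 0% of all genes called, and 4 of the 5 were higher without overlap beside 22.2% of all genes. The 11 caput principal cell markers summed to 1421 to 4456 in TP, 1145 to 2401 in E2, 406 to 788 in castrated and 5911 to 10277 in sham duct, with Adam7, Lcn9 and Spink10 below background in castrated duct. The 9 sperm and germ cell markers summed to 159 to 1647 in TP, 194 to 386 in E2, 96.1 to 97.1 in castrated and 602 to 647 in sham duct. The 2 TP duct arrays were unlike: Gpx5 read 676 and 18.4 and Prm2 410 and 15.8 on replicates 1 and 2, while Aqp9 read 95.1 and 180. All of the 5 genes but Kcnc4, on its brighter probe set, also read higher on TP replicate 1. The part of these markers in the duct values was not tested.

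Without castration, 4 of the 5 genes were higher in the caput than in the ducts. In sham caput against sham duct, Hpdl was 21.6-fold higher (log2 difference 4.43, adjusted p = 0.000842), Syt12 12.9-fold (3.69, adjusted p = 0.00932), Mpp2 7.82-fold (2.97, adjusted p = 0.000298) and Asb11 4.90-fold (2.29, adjusted p = 0.00558) in the limma fit of all 16 arrays. Kcnc4, on its brighter probe set, differed by -0.03 with a 95% interval of -2.65 to 2.59 (limma adjusted p = 0.984). The direction of Kcnc4 turned without sham caput replicate 1, without sham duct replicate 1 and with the mean of its probe sets. Its dimmer probe set was higher in the caput by 1.59 (95% interval 0.11 to 3.07, adjusted p = 0.0682 in the limma fit over all probe sets). The 4 calls stand against 31% of all genes called higher and 54.4% called in either direction, with a median of all genes at 0.30. Caput RNA had been labelled from 10 µg with a one-cycle kit and duct RNA amplified from 50 ng, so tissue and labelling cannot be told apart.

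Lists of genes that work beside the 5 were counted in TP against castrated caput, where 1.67% of all genes were called in either direction. For Hpdl, the nearest relative Hpd, which degrades 4-hydroxyphenylpyruvate, read 15.1 and 8.11 with TP and 10.9 and 13.0 in castrated caput, around background. Of the 8 measured tyrosine catabolism genes beside Hpdl, 1 rose and 0 fell, with a median log2 difference of -0.11 beside -0.05 for all genes. That gene was Got2, the mitochondrial aspartate aminotransferase, at 4205 and 4967 with TP and 1269 and 1339 in castrated caput, 3.50-fold higher (limma adjusted p = 0.0147). Of the 12 measured coenzyme Q genes, 0 rose and 0 fell past the limma threshold, with a median of -0.14.

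For Asb11, 0 of 21 other ASB and CUL5 ligase genes rose or fell in TP against castrated caput, with a median of 0.24. Its relative Asb9 was below background on both TP arrays and at least 1.55-fold lower there than in castrated caput (limma adjusted p = 0.242). Asb5, near background, and Asb13 differed by 0.41 and -0.64 (limma adjusted p = 0.307 and 0.0684). Of 21 endoplasmic reticulum stress genes, 6 rose and 0 fell, beside the 1.67% of all genes called, and 18 had a positive difference, with a median of 0.68. Sdf2l1, a chaperone cofactor, read 505 and 376 with TP and 105 and 109 in castrated caput, 4.08-fold higher (limma adjusted p = 0.0396). Creld2, a secreted stress protein, read 2004 and 1979 with TP and 665 and 605 in castrated caput, 3.14-fold higher (adjusted p = 0.0147). Ern1, the stress sensor IRE1, was 2.40-fold higher (limma adjusted p = 0.0287), and Manf, a secreted stress protein, 2.16-fold (adjusted p = 0.0234). Xbp1, the transcription factor activated by splicing downstream of IRE1, differed by -0.00 in signal (limma adjusted p = 0.990), a value that does not tell its spliced from its unspliced form. In E2 against sham caput, where 7.26% of all genes were called lower and 17.2% in either direction, 8 of these 21 genes fell and 1 rose. The gene that rose was Bik, whose product is a target of ASB11 in human cells, at 68.1 and 83.6 with E2 and 24.1 and 25.4 in sham caput. Bik read 36.2 and 39.0 in TP caput and 42.7 and 40.8 in castrated caput, the groups between which Asb11 differed most. ASB11 targets the BIK protein, which was not measured, and a link between the 2 genes was not tested.

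For Kcnc4, 0 of 19 measured voltage-gated potassium channel genes rose or fell in TP against castrated caput, with a median of -0.23. Its relative Kcnc1 was below background on both TP arrays (limma adjusted p = 0.965), and Kcnc2 differed by -0.64 (adjusted p = 0.359). For Mpp2, 1 of 17 scaffold genes rose and 0 fell, with a median of -0.05. That was Lin7b, a partner of MPP scaffolds, at 23.2 and 19.6 with TP and 9.16 and 7.15 in castrated caput, 2.63-fold higher (limma adjusted p = 0.0398). Mpp3 and Mpp6 differed by 0.37 and 0.50 (limma adjusted p = 0.515 and 0.414). For Syt12, 1 of 21 synaptotagmin and exocytosis genes rose and 0 fell, with a median of 0.14. That was Syt2, a calcium sensor of vesicle fusion, at 35.2 and 29.8 with TP and 4.73 and 5.05 in castrated caput, both below background, so at least 3.43-fold higher (limma adjusted p = 0.0147). Syt1 and Syt7, the second near background, differed by -0.32 and 0.22 (limma adjusted p = 0.547 and 0.919). Of 8 measured genes of androgen action, 1 rose and 0 fell: Fkbp5, a chaperone partner known as an androgen target, at 1819 and 1717 with TP and 602 and 557 in castrated caput, 3.05-fold higher (limma adjusted p = 0.0147).

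**Figure D4:**
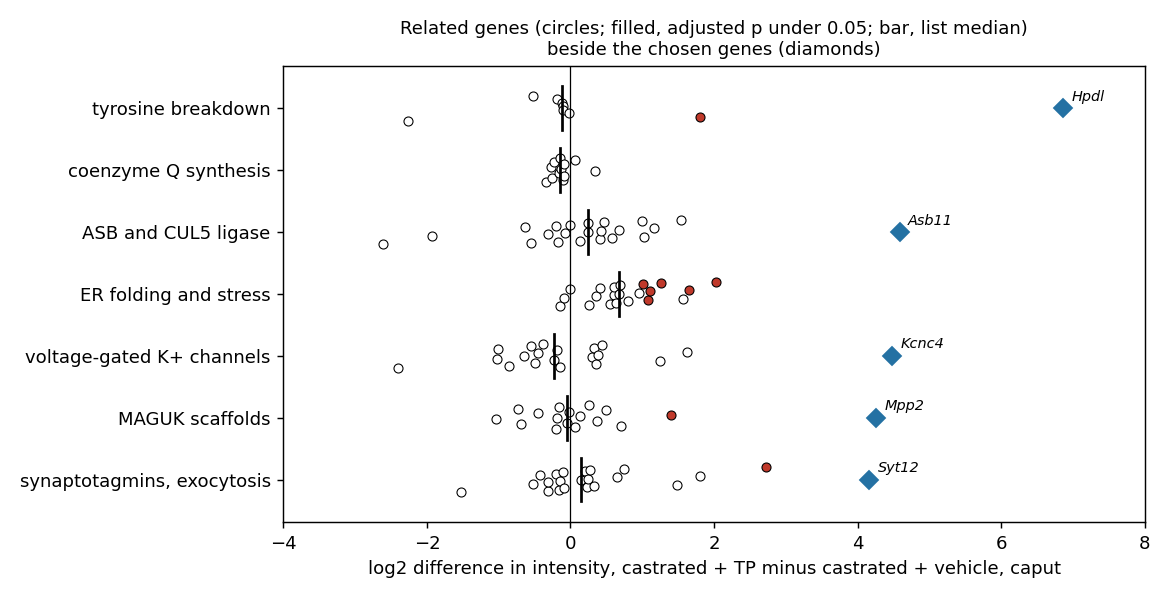
Log2 differences in TP minus castrated caput for the measured genes of 7 related lists, 1 circle a gene, filled where the adjusted p was under 0.05, with a bar at each list median and the 5 chosen genes as diamonds. The endoplasmic reticulum stress list has a median of 0.68 with 6 genes past the threshold, and the other lists have medians between -0.23 and 0.24 with 0 or 1.

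Other genes traced patterns like those of the 5 over the 8 caput arrays, measured by Pearson's r of log2 intensity among 14623 genes above background on at least 4 caput arrays. The 8 arrays share 4 groups, 3 of which share castration, so high values of r are easily reached and are given without a p. Closest to Hpdl were Wipf3 (r = 0.994), an actin regulator, Slc35b1 (0.993), a transporter of the endoplasmic reticulum, and Ccno (0.992), a cyclin of multiciliated cells. Ccno does not stand for the 8 measured ciliated cell markers. In castrated against sham caput 4 of the 8 rose and 2 fell, with a median of 1.11, where Ccno differed by -2.87. In TP against castrated caput their median was -0.15. Closest to Asb11 were Cited4 (0.993), a transcription cofactor, Psma7 (0.988), a proteasome subunit, and Suox (0.985), sulfite oxidase. Closest to Kcnc4 were Cstf2 (0.995), an RNA cleavage factor, Spink5 (0.993), a protease inhibitor, and Manf (0.992). Closest to Mpp2 were Srprb (0.973), a subunit of the signal recognition particle receptor, Tubb4b (0.971), a tubulin, and Srm (0.970), spermidine synthase. Closest to Syt12 were the O-glycosylation enzymes Galnt10 and Galnt2 (0.990 each) and Alpl (0.986), alkaline phosphatase.

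The likeness carried over to the 8 duct arrays to different degrees. The 3 genes of Mpp2 kept r at 0.893 for Srprb, 0.891 for Tubb4b and 0.865 for Srm, and Suox with Asb11 kept 0.882. Cstf2 with Kcnc4 had 0.195 in the ducts and Slc35b1 with Hpdl 0.250. Among the 5 genes themselves, r over the caput arrays ran from 0.770 for Kcnc4 with Mpp2 to 0.977 for Hpdl with Asb11, as the choice of genes favours. In the ducts those pairs had 0.112 and 0.558, and the signal-quality sets of the duct arrays are part of every duct value. The differences of the like genes between TP and castrated caput covered a wide range. Spink5 read 12.8-fold, Ccno 9.66-fold and Suox 7.06-fold higher with TP, while Galnt2 read 1.48-fold higher.

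Kcnc4, Mpp2 and Syt12 are known from nerve or muscle, so markers of those tissues were looked at in the caput. The 15 skeletal muscle markers summed to 205 to 220 in TP, 216 to 299 in E2, 163 to 235 in castrated and 266 to 277 in sham caput. Of these, 7 were below background in TP, 7 in E2, 6 in castrated and 6 in sham caput, with Myh1, Myh2 and Neb below it in all groups. The 10 measured neuron and nerve markers summed to 119 to 125 in TP, 125 to 142 in E2, 112 to 115 in castrated and 207 to 253 in sham caput, and the neurofilament gene Nefl was below background in all 4 groups. The sum does not give the direction of most of them. In castrated against sham caput 6 of the 10 were higher, with a median log2 difference of 0.44 beside 0.06 for all genes. Past the limma threshold 1 fell and 0 rose. The part of these cell types in the values of the 5 genes was not tested.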

How the data were processed

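RNA from caput epididymis and efferent duct was measured on 16 one-colour Affymetrix arrays with 45101 probe sets. The deposited values are intensities on a linear scale; RMA is named, without a version, per the submitters' processing notes, though RMA usually gives log2 values and these were not in log2 form when deposited. Here log2 was taken. Probe sets with 1 symbol in GEO's platform annotation (34958; 932 had several and 9211 none) gave 18194 genes, each by its brightest probe set. limma 3.58.1 (R 4.3.3; lmFit and eBayes) was fitted per tissue on 8 arrays in 4 groups, and on all 16 arrays between tissues, with Benjamini-Hochberg adjustment over all genes, a threshold of 0.05 and 95% intervals. The script was tested on simulated data. A gene below background on both arrays of a group has only a bound ("at least"), with its signal on each array taken as the higher of itself and that array's background. The number of arrays limits the precision. Alternatives were quantile normalization, other choices of probe set, of limma's prior and of arrays fitted, a floor, a filter on dim genes, a replicate block and leaving out each array. The members and the gene lists were chosen with earlier results of these data known. Named genes were the 5 members, their nearest relatives, the 3 genes most like each in the caput, and up to 4 genes with the largest called difference per list in TP minus castrated caput; Xbp1, Bik and markers were named after their values were seen. Python 3.11.15, pandas 2.3.3 and matplotlib 3.10.9 were used for tables and figures.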

Additional observations from a re-analysis of the deposited data

Results flagged for a closer look

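For 2 of the 5 genes a difference on which all arrays of the groups agreed had opposite directions in caput and duct. Hpdl was higher in E2 than in castrated caput, by 1.60 on the log2 scale, and lower in E2 than in castrated duct, by -2.13. Both duct groups were below background on their arrays, so the duct value is no measured order. In the caput, castrated values were below background and E2 values just above it, so that order is not established either. Mpp2 was lower in E2 than in sham caput, by -0.87, and higher in E2 than in sham duct, by 1.35. The E2 and sham duct arrays lie in different sets of signal quality, with a background of 3.14 and 3.97 on the E2 arrays and 14.3 and 8.09 on the sham arrays. The difference between the tissues was not tested for either gene.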

How the results depend on the processing

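Over the comparisons with a test, 304 log2 differences of the 5 genes were recomputed: 273 kept direction and side of the threshold, 11 lost a call, 15 gained one and 5 turned. Those that turned were Syt12 in TP minus E2 duct (-0.75 without TP replicate 1 and -0.38 without E2 replicate 2, with a range of -0.75 to 1.06 over the arrays left out) and Kcnc4 in sham caput minus sham duct (0.78 with its probe sets averaged, 0.25 without caput replicate 1 and 0.44 without duct replicate 1, with a range of -0.51 to 0.44 over the arrays left out). Of 320 in comparisons without a test, 278 moved by less than the replicate spread and 42 by more. Calls among the 5 genes in E2 minus sham caput were 0 with only the 4 arrays compared and 2 to 3 with 1 array left out. In castrated minus sham duct they were 1 without the 40% dimmest genes, and 2 with an intensity trend in the prior, with 1 fit of all 16 arrays and with values under 16 set to 16. In TP minus castrated duct they were 1 without the dimmest genes, 4 with the trend, 4 with the fit of all 16 arrays and 2 to 4 with 1 array left out. They were 1 in TP minus E2 duct with the fit of all 16 arrays, and 2 in sham caput minus sham duct without the dimmest genes, a filter that removes Kcnc4 in the caput, Kcnc4, Hpdl and Syt12 between tissues and all of the 5 but Asb11 in the ducts. Counts over all genes moved more. In TP minus castrated caput, 304 genes called became 1622 without the dimmest genes, 118 with probe sets averaged, 1687 with the trend, 0 with the 4 arrays alone, 7 with the replicate block, 926 with the floor of 16, and 6 to 12 with 1 array left out. In castrated minus sham caput, in the same order without the floor, 2550 became 4160, 1504, 4408, 0 and 1556, and 326 to 523. In TP minus sham caput 1666 became 3573, 840, 3873, 7, 577 and 2746, and 49 to 113. In TP minus E2 caput 386 became 1268, 153, 1396, 0, 9 and 781, 253 with all probe sets as separate rows, and 0 to 13. In E2 minus castrated caput 0 became 575 without the dimmest genes, 11 with quantile normalization, 724 with the trend, 104 with the fit of all 16 arrays and 343 with the floor. In E2 minus sham caput 3138 became 2033 with probe sets averaged, 4959 with the trend, 5 with the 4 arrays alone and 605 to 1337 with 1 array left out, and the replicate block gave 2215. In castrated minus sham duct 53 became 490 without the dimmest genes, 34 with probe sets averaged, 699 with the trend, 991 with the fit of all 16 arrays, 0 with the 4 arrays alone, 8 with the replicate block, 241 with the floor, and 0 to 91 with 1 array left out. In TP minus castrated duct 6464 became 3978 with quantile normalization, 4016 with probe sets averaged, 2339 with the 4 arrays alone, 9877 with all probe sets and 2442 to 4738 with 1 array left out. In TP minus E2 duct 0 became 69 without the dimmest genes, 118 with the trend, 132 with the fit of all 16 arrays and 65 with the floor. In sham caput minus sham duct 9903 became 18294 with all probe sets. The cause was not tested. The replicate block rests on the numbers in the labels. Deviations of same-numbered arrays correlated between -0.03 and 0.02 in the caput and between -0.05 and 0.07 in the ducts, 6 pairs each. These correlations gave no sign of pairing within a tissue but cannot exclude a shared origin. Caput and duct arrays were not compared in this way. The block changed no call of the 5 genes. Between tissues the fit of all 16 arrays is the one reported. Signal near background limits the 5 genes in castrated tissue, and Hpdl and Kcnc4 in E2 tissue. Folds are given as bounds where both arrays of the dimmer group were below background.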
